A study of Mus musculus with 4 samples.

Results

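Messenger RNAs of 9 selenoproteins and of the selenium receptor Lrp8 were followed in bronchoalveolar stem cells (BASCs) with and without depletion of c-Myc. The 10 genes were Selenop, Lrp8, Gpx1, Gpx3, Gpx4, Txnrd1, Txnrd2, Selenom, Selenow and Selenoh, out of 12,589 genes with a tested probe set of their own. Every probe set that the platform annotation gives to 1 of these symbols was taken, which made 19 probe sets, and all 19 passed the filter on low values. The genes were selected on measured values of this same contrast, which were already known. Selenop was chosen by its large Myc-depleted minus control difference, and the others were added around it as selenoproteins or as its receptor. All differences between the groups are therefore given for the 10 genes as a description, with no test.

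Expression was read on 4 Affymetrix mouse arrays in 1 colour. BASCs were sorted from lungs of ICR mice aged 4 to 6 weeks as cells negative for CD31 and CD45 and positive for CD34 and Sca-1, and were plated on irradiated embryonic fibroblasts as feeders. Later culture is described both on such feeders and on dishes coated with collagen, and which was used for the arrays is not stated. The labels put 2 arrays in the control group and 2 in the Myc-depleted group, whose cells carried a lentiviral short hairpin RNA against c-Myc and had been kept under puromycin for several generations as a stable line. The study calls its array controls wild type without saying whether they met a control virus or puromycin, so effects of virus, selection and depletion cannot be told apart. The hairpin used and the number of lines behind the 2 Myc-depleted arrays are not given in the sources used here. Whether the arrays of a group were separate cultures is not stated either. Each SD and p-value therefore reflects only how far these arrays differ, and that spread may be technical.

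Selenoproteins carry selenocysteine, an amino acid inserted at a UGA codon that would otherwise end translation. Insertion needs a hairpin in the messenger RNA, the SECIS element, together with a dedicated transfer RNA, its binding proteins and an elongation factor. Selenop is the secreted protein that carries selenium through plasma, and Lrp8, also a receptor for reelin, takes it up in several tissues. The glutathione peroxidases (Gpx) reduce peroxides, the thioredoxin reductases (Txnrd) keep thioredoxin reduced, and Selenom, Selenow and Selenoh are small proteins with a redox fold. Levels of several selenoprotein messenger RNAs are known to depend on selenium supply, which was not measured here.

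The bases before the transcription start are shown for 4 of the genes: Selenop, which had the largest difference, Lrp8 and Selenoh, which were lower in Myc-depleted cells, and Txnrd1, whose probe sets differed among themselves. They are RefSeq sequences of build GRCm38.p6, 250 bases each, written 5′ to 3′ on the strand of the gene and ending next to the start site. Selenop is at chr15:3270517-3270766 on the plus strand, Lrp8 at chr4:107802635-107802884 on the plus strand, Txnrd1 at chr10:82858956-82859205 on the plus strand (the second of its 3 listed start sites) and Selenoh at chr2:84670709-84670958 on the minus strand. For Selenop and Lrp8 the first of 3 listed start sites is shown. Capitals mark CACGTG, the E-box that Myc and its partner Max can bind, and TGACNNNGC, the core of the antioxidant response element.
Selenop: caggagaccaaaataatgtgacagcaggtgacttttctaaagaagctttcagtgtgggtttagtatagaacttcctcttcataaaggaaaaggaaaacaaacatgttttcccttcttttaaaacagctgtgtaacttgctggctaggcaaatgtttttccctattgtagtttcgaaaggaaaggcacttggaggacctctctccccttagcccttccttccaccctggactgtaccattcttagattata
Lrp8: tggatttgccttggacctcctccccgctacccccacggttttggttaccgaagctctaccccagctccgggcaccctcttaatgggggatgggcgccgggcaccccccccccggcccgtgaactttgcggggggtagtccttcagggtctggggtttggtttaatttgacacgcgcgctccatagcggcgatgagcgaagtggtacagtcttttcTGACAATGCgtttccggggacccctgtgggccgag
Txnrd1: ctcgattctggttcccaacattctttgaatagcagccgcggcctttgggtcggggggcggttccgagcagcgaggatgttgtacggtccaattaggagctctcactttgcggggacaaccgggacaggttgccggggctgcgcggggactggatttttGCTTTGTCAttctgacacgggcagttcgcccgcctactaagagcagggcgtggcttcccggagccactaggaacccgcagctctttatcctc
Selenoh: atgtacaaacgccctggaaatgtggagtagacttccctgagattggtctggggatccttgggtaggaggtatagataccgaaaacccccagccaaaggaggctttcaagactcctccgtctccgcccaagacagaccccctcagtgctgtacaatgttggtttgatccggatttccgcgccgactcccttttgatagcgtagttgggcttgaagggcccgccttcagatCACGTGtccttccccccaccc

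Both motifs were searched in all RefSeq windows from 250 bases before each start into the first transcribed bases. CACGTG reads the same on both strands, TGACNNNGC was searched on both, and a CACGTG can share its last bases with a TGACNNNGC, which happened in none of the 10 genes. Of the 10 genes, 1 held CACGTG in a window, which was Selenoh, 21 bases before the start. Of the 24 selenoprotein genes with a window, 3 held it (12.5%), the other two being Selenos (17 bases before the start) and Sephs2 (160 bases before it). The share was 8.09% of all 27,025 genes with a window and 7.15% of all 32,851 windows. TGACNNNGC was in a window of 2 of the 10 genes, Lrp8 at 35 bases before the start and Txnrd1 at 92 bases before it on the opposite strand. Selenok also held it, 44 bases before the start. Among all 24 selenoprotein genes it was found in 2 (8.33%), against 14% of all genes and 12.4% of all windows. A gene with several windows has more chances of a match, and Gpx4 has 4 while 6 of the 10 genes have 1. Neither motif occurred in the 3 Selenop windows, which says only that these letters are not in them.

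A single probe set read Myc, the transcription factor targeted by the hairpin. Its log2 level was 9.21 and 9.69 on control arrays 1 and 2, and 8.35 and 8.50 on Myc-depleted arrays 1 and 2. Both Myc-depleted arrays lay under both controls. The difference of -1.02 (SE 0.21) left 49.2% of the control level, and its adjusted p in limma was 0.363 (unadjusted p = 0.00765). Apart from the arrays, the study measured c-Myc messenger RNA and protein of its stable knock-down lines by real-time PCR and western blotting. In the fit over 27,022 probe sets, 0 passed the adjusted threshold of 0.05 (0%), with a smallest adjusted p of 0.110, while 2726 probe sets had an unadjusted p under 0.05. The median difference over the 12,589 genes was 0.02 on the log2 scale, with quartiles of -0.13 and 0.17.

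The arrays did not pair up by group in 1 technical measure, the 3′ minus 5′ difference of the control probe sets, which grows as labelled RNA falls short of the 5′ end. For the poly-A spike-in transcripts added to each RNA, this log2 difference was 2.15 on control 1 and 2.05 on Myc-depleted 2, against 3.24 on control 2 and 3.62 on Myc-depleted 1. The actin and Gapdh control probe sets split the 4 arrays in the same way. Each group thus held 1 array of low and 1 of high difference, and each comparison below could also be read within a pair of like arrays. Markers of the sort were at or near background: Cd34, Pecam1 (CD31) and Ptprc (CD45) were under the low-value threshold of 5.08 on the log2 scale, and Ly6a (Sca-1) was not analysed here. The club cell marker Scgb1a1 and the alveolar markers Sftpc, Sftpa1 and Sftpd were under it too, as were Cdh1, Krt8, Krt18 and Ager. The 6 of 14 lung epithelial markers over the threshold were Sftpb, Abca3, Aqp5, Hopx, Epcam and Krt19. For SP-C (Sftpc) and CCA (Scgb1a1), the study reports protein by immunostaining in most colonies after repeated passage. It also describes RNA of SP-C, CCA and Aquaporin as unchanged in its arrays. Of 12 fibroblast markers, 11 were over the threshold, among them Col1a1, Col1a2, Fn1 and Vim, while Lum was under it. The log2 of the summed level of the fibroblast list was 16.4, 16.6, 16.7 and 16.4 on control 1, control 2, Myc-depleted 1 and Myc-depleted 2, and that of the epithelial list was 9.61, 9.55, 9.96 and 9.78. Endothelial markers passed in 1 of 6 genes and macrophage markers in 4 of 8, with macrophage sums of 10.2, 9.71, 9.68 and 10.3. The part of other cells in the differences below was not tested, and in such bulk RNA, fewer cells of a type and less RNA per cell cannot be told apart.

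Selenop was chosen for its large difference, so its place above the other genes was set by that choice. The log2 level of its only probe set was 9.88 on control 1 and 10.03 on control 2, and 12.08 on Myc-depleted 1 and 11.94 on Myc-depleted 2. Both Myc-depleted arrays were far above both controls, and arrays of 1 group lay within 0.15 of each other. The means were 9.96 ± 0.11 (mean ± SD of 2 arrays) in control and 12.01 ± 0.09 under depletion. Selenop thus differed by 2.05 (SE 0.13), or 4.15-fold, with the higher level in Myc-depleted cells. It was 2.06 between the 2 arrays of low spike-in difference and 2.04 between the 2 of high difference, so that it was as large within either pair. A difference of at least 1 in either direction was present in 1.79% of all genes tested. Selenop was the only probe set of the 19 to reach it, and, as it was chosen for its difference, nothing is read from that share. Although the summed fibroblast level was even, single fibroblast markers also differed between the groups. Pdgfra, a growth factor receptor of mesenchymal cells, was higher in Myc-depleted cells by 1.01 to 1.23 at its 3 probe sets. Col6a1 was higher by 0.72 and Dcn by 0.67, while Thy1 differed by -1.26. Postn gave -0.64 and Col1a1 -0.52 at its brighter probe set, both with overlapping groups. At the brightest probe sets, 6 fibroblast markers had a positive and 5 a negative difference, with a median of 0.02. Of the 11 fibroblast markers tested in limma, 0 passed the adjusted threshold, and 4 higher and 1 lower had an unadjusted p under 0.05. Such an unadjusted p was reached by 12.2% of all genes. Of the 6 lung epithelial markers tested, 5 had a positive and 1 a negative difference. Epcam was higher by 0.65 at its tested probe set, and Krt19 by 0.58 with overlapping groups. In limma, 0 of these 6 passed the adjusted threshold and 1 had an unadjusted p under 0.05. The part of these fibroblast and epithelial markers in the Selenop difference was not tested.

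**Figure D1:**
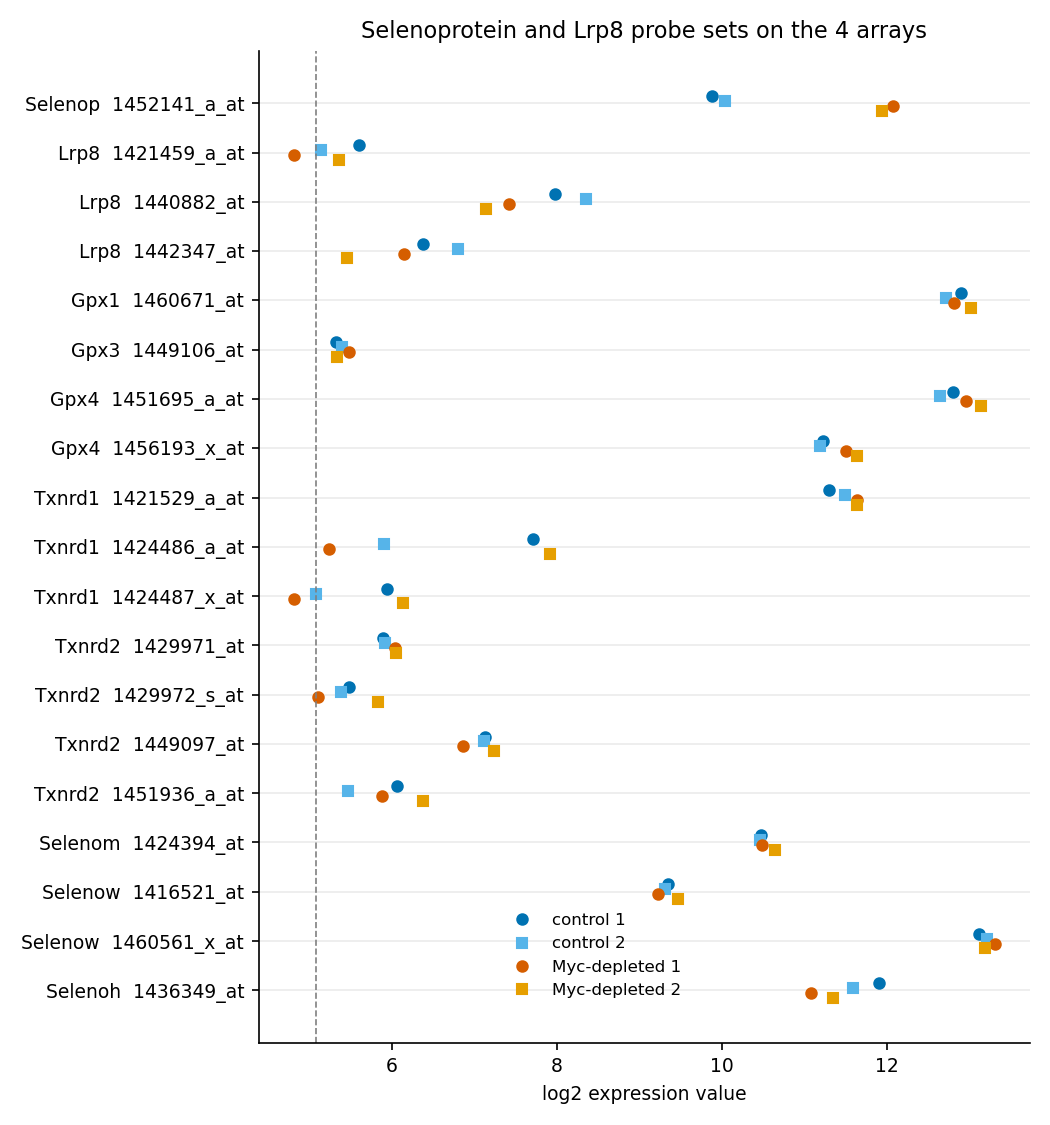
Log2 expression value (horizontal axis) of each of the 19 probe sets on the 4 arrays, with control arrays in blue, Myc-depleted arrays in orange and the low-value threshold of 5.08 as a dashed line. Selenop lies at 9.88 and 10.03 on the controls and at 12.08 and 11.94 on the Myc-depleted arrays, while most other probe sets have points of both groups side by side.

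Lrp8, the receptor that takes up Selenop, lay lower in Myc-depleted cells at 2 of its 3 probe sets. Probe set 1440882_at read 7.98 and 8.35 on the controls and 7.42 and 7.14 on Myc-depleted arrays 1 and 2. The groups did not overlap, and the difference was -0.88 on the log2 scale, or 1.85-fold lower. Groups lay apart in this direction in 18.5% of all 27,022 probe sets tested, and in the other direction in 22.5%. Probe set 1442347_at read 6.37 and 6.80 on the controls, and 6.15 and 5.46 on the Myc-depleted arrays, a difference of -0.79 with a narrow gap between control 1 and Myc-depleted 1. The third, 1421459_a_at, gave 5.59 and 5.14 against 4.81 and 5.35, close to the low-value threshold, and its groups overlapped (difference -0.28). Lrp8 thus had a negative sign at all 3 probe sets, and groups lying fully apart at the 2 brighter ones. Within the pairs of like arrays the difference of 1440882_at was -0.84 (low spike-in difference) and -0.93 (high). For 1442347_at these were -0.92 and -0.65.

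Vldlr is the other reelin receptor and a close relative of Lrp8. It is not a selenoprotein and stands in the list of supply and reelin pathway genes. Its brightest probe set, 1434465_x_at, read 8.80 and 9.55 on the controls and 6.28 and 7.14 on Myc-depleted arrays 1 and 2. All control values lay above all Myc-depleted values. The log2 difference was -2.46 (SE 0.42), with an adjusted p of 0.337 in limma, so it did not pass the threshold. The other tested probe set, 1417900_a_at, gave -2.44, but its mean in Myc-depleted cells, 4.78, was under the low-value threshold, so that it passed the filter through the controls. The 4 dim ones under the filter gave -0.26 to -1.17, with overlapping groups in 1 of them.

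**Figure D2:**
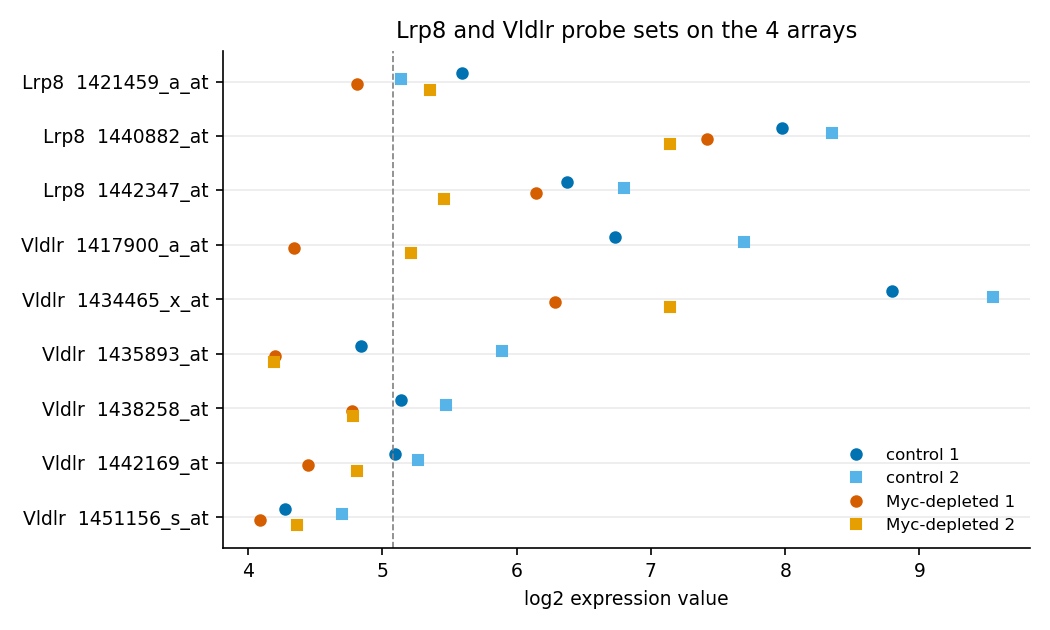
Log2 expression value (horizontal axis) of the 3 Lrp8 and 6 Vldlr probe sets on each of the 4 arrays, with controls in blue, Myc-depleted arrays in orange and the low-value threshold of 5.08 dashed. The controls lie to the right at 7 of the 9 probe sets, with the widest gap at 1434465_x_at of Vldlr (8.80 and 9.55 against 6.28 and 7.14).

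The glutathione peroxidases showed small differences. Gpx4, which reduces lipid peroxides within membranes, read 12.80 and 12.64 on the controls and 12.96 and 13.14 on the Myc-depleted arrays at probe set 1451695_a_at. Its second probe set, 1456193_x_at, read 11.23 and 11.19 against 11.50 and 11.63. Both had groups lying apart, and their log2 differences were close to each other, 0.33 and 0.36, or 1.26-fold and 1.28-fold higher in Myc-depleted cells. Within the pairs of like arrays they ran from 0.31 to 0.40.

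Gpx1, the abundant cytosolic peroxidase, gave 12.89 and 12.71 on the controls and 12.81 and 13.02 on the Myc-depleted arrays. Its groups overlapped and the difference was 0.11. Gpx3, the peroxidase secreted into plasma, read between 5.32 and 5.48 on all 4 arrays, just over the low-value threshold, with a difference of 0.05. Of the 3 peroxidases, Gpx4 was thus the one whose groups lay apart. Beside this, groups lay apart upward in 26.6% and downward in 20.8% of all genes, so nothing is read from that count.

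The thioredoxin reductases gave a mixed picture, which followed the technical measure at several probe sets. Txnrd1 is the cytosolic enzyme. Its bright probe set, 1421529_a_at, read 11.30 and 11.50 on the controls and 11.64 and 11.63 on the Myc-depleted arrays, a log2 difference of 0.24 with groups apart. Probe set 1424486_a_at read 7.71 on control 1 and 7.91 on Myc-depleted 2, but 5.91 on control 2 and 5.24 on Myc-depleted 1. Probe set 1424487_x_at had the same order, with 5.94 and 6.13 against 5.07 and 4.81. At these 2 probe sets the arrays therefore divided by spike-in difference and not by group: the higher values came with the lower spike-in difference. Myc-depleted 1 minus Myc-depleted 2 was -2.67 for 1424486_a_at, and the group differences were -0.23 and -0.03. Without Myc-depleted 1 the difference of 1424486_a_at was 1.10, and without Myc-depleted 2 it was -1.57. Leaving out control 1 gave 0.67 and leaving out control 2 gave -1.14. Within the pairs of like arrays it was 0.20 and -0.67. The bright probe set gave 0.33 and 0.14 within those pairs. The part of RNA length in the Txnrd1 values was not tested.

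Txnrd2, the mitochondrial reductase, was read by 4 probe sets. Probe set 1429971_at read 5.89 and 5.91 on the controls and 6.03 and 6.05 on the Myc-depleted arrays, so the groups lay apart by a small step of 0.14. The brightest, 1449097_at, gave 7.13 and 7.12 against 6.86 and 7.24, with overlapping groups and a difference of -0.07. Probe sets 1429972_s_at (5.48, 5.39, 5.10 and 5.83 in the order of arrays used above) and 1451936_a_at (6.06, 5.46, 5.88 and 6.38) overlapped as well. Their differences were 0.03 and 0.37. All 4 probe sets of Txnrd2 had their highest value on Myc-depleted 2, an array of low spike-in difference.

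**Figure D3:**
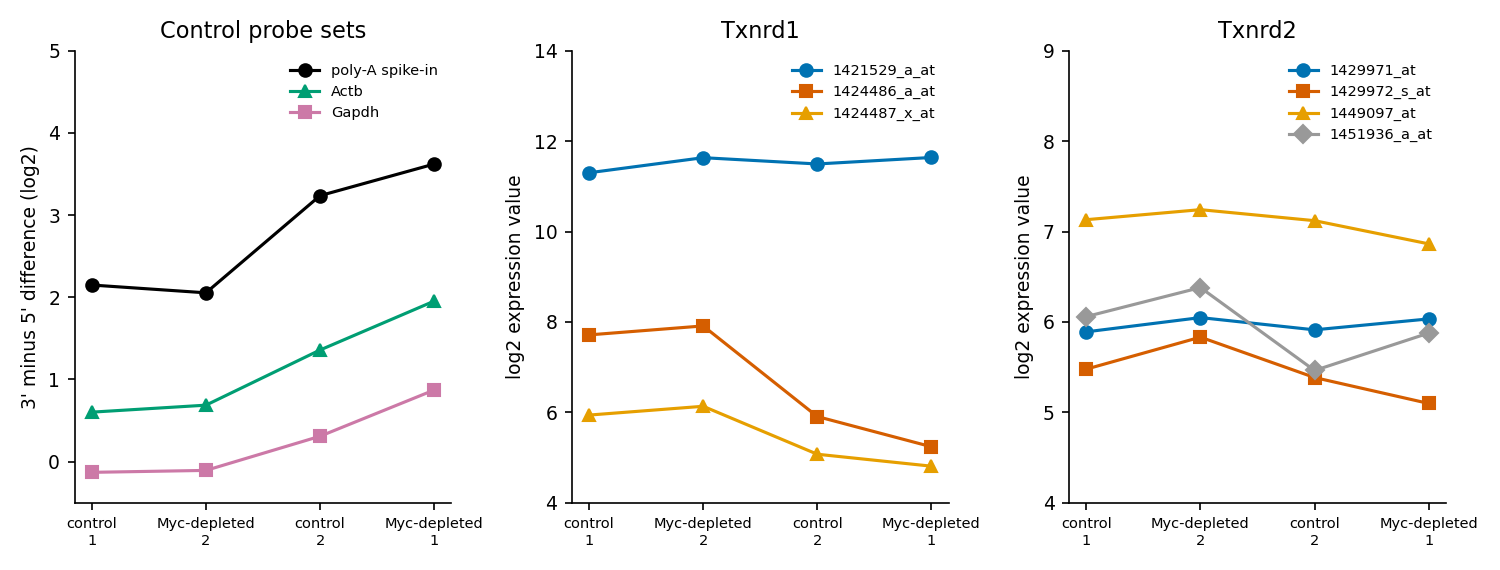
Left, 3′ minus 5′ log2 difference of the poly-A spike-in, actin and Gapdh control probe sets on each array, and middle and right, log2 expression value of each Txnrd1 and Txnrd2 probe set, with the 2 arrays of low spike-in difference drawn first and lines joining points of 1 probe set. Txnrd1 1424486_a_at stands at 7.71 and 7.91 on the first pair and at 5.91 and 5.24 on the second, while 1421529_a_at stays between 11.30 and 11.64.

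Of the 3 small redox-fold selenoproteins, Selenoh was the one with a lower level in Myc-depleted cells. Selenoh is a nucleolar protein. It read 11.90 and 11.59 on the controls and 11.08 and 11.35 on the Myc-depleted arrays, so its groups did not overlap. The log2 difference was -0.53, or 1.45-fold lower, and was -0.55 and -0.51 within the pairs of like arrays. Groups lay apart in this direction in 20.8% of all genes. Of the 10 genes, Selenoh alone held the E-box in a searched window. Of the other selenoproteins holding it, Selenos was higher in Myc-depleted cells (0.16) and Sephs2 lower (-0.23) at the brightest probe set. Whether Myc binds at these sites was not tested.

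Selenom, a protein of the endoplasmic reticulum, read 10.47 and 10.46 on the controls and 10.49 and 10.65 on the Myc-depleted arrays. Its groups were just apart, with a difference of 0.10. Selenow, a small cytosolic protein, read 13.11 and 13.21 against 13.30 and 13.19 at 1460561_x_at and 9.35 and 9.31 against 9.23 and 9.46 at 1416521_at. Both probe sets of Selenow overlapped between the groups, with differences of 0.09 and 0.01.

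Over all 19 probe sets, 6 had both Myc-depleted arrays above both controls, 3 had both below, and 10 overlapped. Beside this stand the 22.5% higher and 18.5% lower over all probe sets. With each gene taken by its brightest probe set, 4 of the 10 were higher (Selenop, Gpx4, Txnrd1 and Selenom), 2 were lower (Lrp8 and Selenoh) and 4 overlapped. Of all 12,589 genes, 26.6% lay higher and 20.8% lower without overlap. As the rule used this contrast, nothing is read from these shares. The median difference of the 10 genes was 0.10, and 0.09 without Selenop, beside 0.02 over all genes. Their range ran from -0.88 for Lrp8 to 2.05 for Selenop, and 7 of the 10 were positive, beside 54.0% of all genes.

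**Figure D4:**
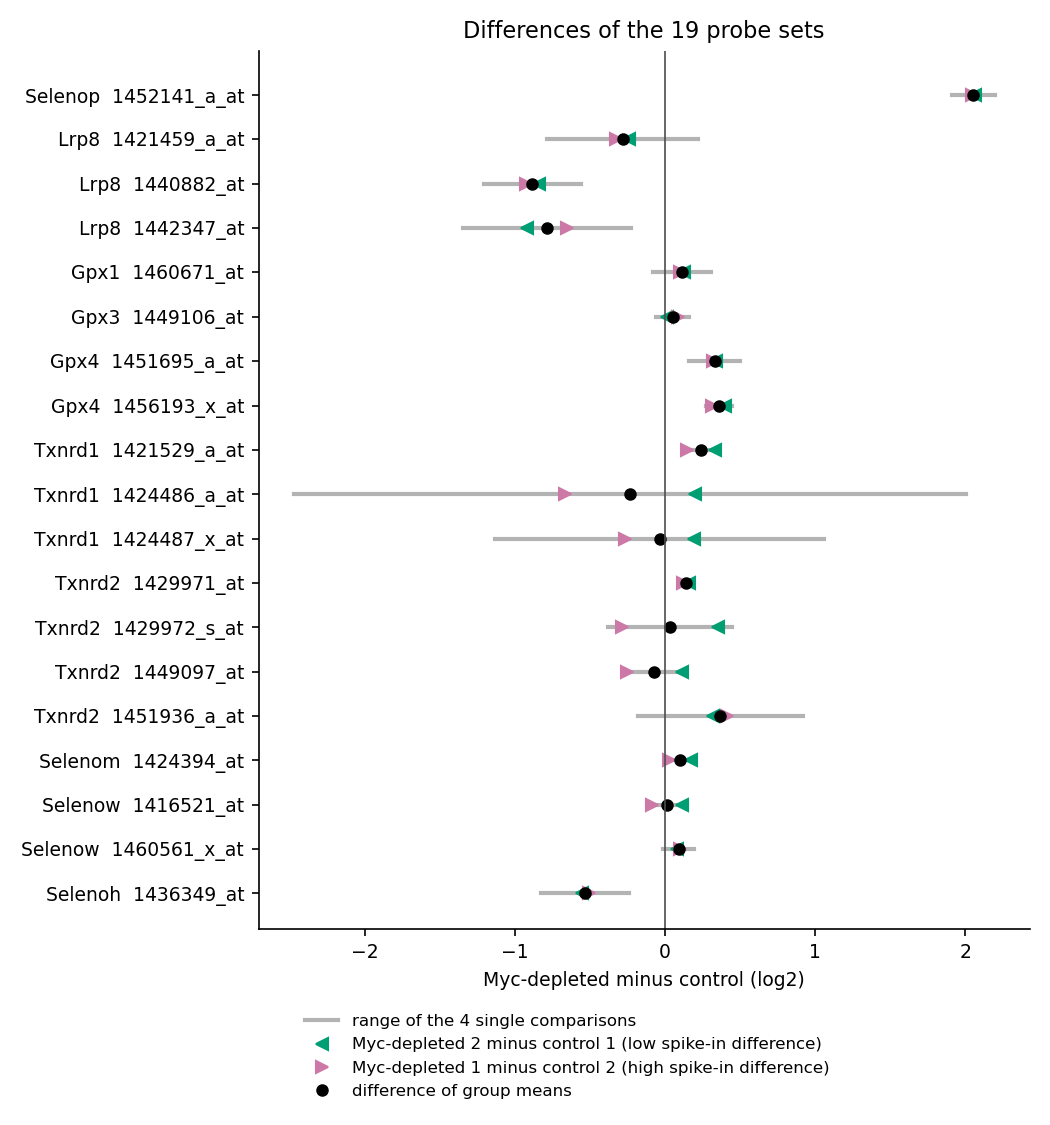
Myc-depleted minus control difference on the log2 scale (horizontal axis) of the 19 probe sets, with the difference of group means as a black point, the differences within the pairs of low and of high spike-in difference as triangles, and the range over the 4 ways of taking 1 array from each group as a grey bar. Selenop lies at 2.05 with both triangles on the point, while the bar of Txnrd1 1424486_a_at is the widest and crosses 0, with its point at -0.23.

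The 5 genes nearest to Selenop over the 4 arrays, by Euclidean distance between log2 profiles after each profile's own mean was subtracted, were B230311B06Rik, Scara5, Pogk, Smoc1 and Igfbp5. Their distances were 0.239, 0.267, 0.287, 0.292 and 0.305 and their differences were between 1.86 and 2.09. Since Selenop was chosen for its difference, so large a difference is what nearness to it selects. In 3 of the 5 (B230311B06Rik, Scara5 and Igfbp5) the control mean was under the low-value threshold, unlike that of Selenop. None of the 5 is a selenoprotein.

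The other selenoproteins are the genes most like the 10. Of 15 listed, 14 had a probe set, and 13 were tested. Dio1, a deiodinase that activates thyroid hormone, was under the filter, and Dio3 was not analysed here. In limma, 0 passed the adjusted threshold and 0 had an unadjusted p under 0.05, against 12.2% of all genes. The methods' ANOVA called 0 after adjustment and 0 before it. With each gene at its brightest probe set, the log2 differences ran from -0.24 to 0.23 with a median of 0.01. Groups lay apart upward in 4 genes and downward in 3, beside 26.6% and 20.8% of all genes. Upward were Selenoo (0.23), a mitochondrial protein, Selenos (0.16), a membrane protein of the endoplasmic reticulum, the deiodinase Dio2 (0.12) and Selenov (0.10). Dio2 had groups apart the other way at its second tested probe set (-0.26), so its direction was not settled. Downward were Selenoi (-0.24), an enzyme of phospholipid synthesis, Sephs2 (-0.23), which makes the selenium donor and is itself a selenoprotein, and the intestinal peroxidase Gpx2 (-0.15). For Sephs2 the 2 other probe sets gave -0.50 and -0.08. Selenoi gave -0.70 at 1442069_at, with groups apart, and -0.39 and 0.15 at the others, where the groups overlapped. Over every tested probe set of these genes the range was thus from -0.70 to 0.34, the highest being Selenos 1435735_x_at. At the brightest probe sets, the smallest adjusted p in limma was 0.630, that of Sephs2. Over every tested probe set it was 0.501, that of Selenos 1435735_x_at. The groups overlapped for Msrb1 (0.08), the methionine sulfoxide reductase, for the endoplasmic reticulum proteins Selenof (0.05), Selenok (-0.02), Selenon (0.01) and Selenot (-0.06), and for Txnrd3 (-0.08).

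The genes that make and insert selenocysteine had differences of both signs, and none passed the test. Of 13 listed, 12 had a probe set of their own and 11 were tested. In limma, 0 passed the adjusted threshold and 1 had an unadjusted p under 0.05, and the methods' ANOVA called 0 after adjustment and 0 before it. At the brightest probe sets, the differences were negative for 7 and positive for 4, with a median of -0.10. There, 4 genes lay apart downward and 0 upward, beside 20.8% and 26.6% of all genes. With all probe sets of a gene averaged, the median was -0.05. Nucleolin (Ncl), which binds the SECIS element and is abundant in nucleoli, had the smallest adjusted p, with 13.03 and 13.07 on the controls, 12.74 and 12.48 on the Myc-depleted arrays and a difference of -0.44 (adjusted p = 0.460). Its other tested probe sets gave -0.29 to -0.79. Alkbh8, which modifies the selenocysteine transfer RNA, also had a difference of -0.44 (adjusted p = 0.619), and Sars, which charges that transfer RNA with serine, one of -0.40 (adjusted p = 0.540). The last gene lying apart downward was Trnau1ap (-0.10), a protein bound to the same transfer RNA. The groups overlapped for the elongation factor Eefsec (-0.25), the kinase Pstk (-0.20), the synthase Sepsecs (0.26) and the SECIS-binding proteins Secisbp2 (0.15) and Secisbp2l (0.10). They overlapped for Sephs1 (0.08) and Trit1 (-0.05) too. At other tested probe sets, groups lay apart upward for Sepsecs (0.27) and Sephs1 (0.24), and downward for Ncl (-0.73) and Sars (-0.31).

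Apart from Vldlr, the remaining genes of selenium supply and the reelin pathway were dim. Of 7 listed, 6 had a probe set and 4 were tested, since Lrp2, a renal receptor for Selenop, and Reln, the reelin ligand, were under the filter. None passed the adjusted threshold in limma, 1 (Vldlr) had an unadjusted p under 0.05, and the methods' ANOVA called 0 after adjustment and 2 before it. Beside this, 12.2% of all genes had an unadjusted p under 0.05 in limma. The ANOVA called 2521 of all 27,022 probe sets before adjustment. The selenium-binding protein Selenbp1 read 5.74 and 5.54 on the controls and 6.27 and 5.86 on the Myc-depleted arrays (difference 0.42, adjusted p = 0.575). At a second probe set, whose control mean was under the low-value threshold, it gave 0.78. Scly, the lyase that recovers selenium from selenocysteine, had a difference of 0.10, and Dab1, an adaptor of the reelin receptors, one of 0.04.

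Thioredoxin and glutathione genes, which work with the selenoenzymes, were divided between higher and lower. Of 26 listed, 22 were tested, and 0 passed the adjusted threshold in limma. An unadjusted p under 0.05 was reached by 5 higher and 2 lower genes, and the methods' ANOVA called 0 after adjustment and 8 before it. The groups lay apart upward in 8 and downward in 4, and the median difference was 0.05. Over all genes, 12.2% had an unadjusted p under 0.05 in limma, and 26.6% lay apart upward and 20.8% downward. The ANOVA called 2521 of all 27,022 probe sets before adjustment. Glutathione synthesis and recycling held both directions. Gclm, the modifier subunit of the first enzyme, read 9.32 and 9.34 on the controls and 9.73 and 10.05 on the Myc-depleted arrays (difference 0.56, adjusted p = 0.427, and 0.87 at its second probe set), while its catalytic subunit Gclc gave -0.38 (adjusted p = 0.460). A second Gclc probe set overlapped between the groups, at -0.05. Glutathione synthetase (Gss) gave 0.54 (adjusted p = 0.384). Glutathione reductase (Gsr), which regenerates glutathione, read 7.37 and 7.64 against 6.64 and 6.93 (difference -0.72, adjusted p = 0.389), and -1.10 at its second probe set. Among the brightest probe sets of the list, the largest difference was that of Sod3, the secreted superoxide dismutase, at 0.80 (adjusted p = 0.358). Sod3 read 5.13 and 5.32 on the controls, close to the low-value threshold, and 5.89 and 6.16 on the Myc-depleted arrays. Its second probe set, under the filter, overlapped between the groups, at 0.17. Glutaredoxin (Glrx) gave 0.44 and catalase (Cat) 0.42. Thioredoxin itself (Txn1), the substrate of Txnrd1, had a difference of -0.29 (adjusted p = 0.529).

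Genes of the pathway of the antioxidant regulator Nrf2 gave no common direction. The list of Nrf2 targets also holds Nfe2l2 and Keap1, genes of the regulator's own pathway. It shares Srxn1, Gclc and Gclm with the previous list, and Txnrd1 is known to belong among the targets. Of 17 listed, 15 were tested, and 0 passed the adjusted threshold in limma. An unadjusted p under 0.05 was reached by 2 higher genes and 1 lower gene, and the methods' ANOVA called 0 after adjustment and 2 before it. The groups lay apart upward in 6 and downward in 4, beside 26.6% and 20.8% of all genes, and the median was 0.06. The share of all genes with an unadjusted p under 0.05 in limma was 12.2%, and the ANOVA called 2521 of all 27,022 probe sets before adjustment. Heme oxygenase (Hmox1) read 8.42 and 8.46 on the controls and 9.03 and 9.18 on the Myc-depleted arrays, a difference of 0.67 (adjusted p = 0.340). The classical target Nqo1 overlapped between the groups (-0.16), and Nfe2l2, which encodes Nrf2, gave 0.17. At the brightest probe sets, Srxn1 gave 0.43, Pir 0.37 and Fth1 0.25. There, Taldo1, an enzyme of the pentose phosphate pathway, gave -0.42, Abcc1 -0.25 and Keap1 -0.14.

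Gpx4 guards against lipid peroxidation, and the other genes of that process were read beside it. Of 11 listed, 8 were tested, with 0 past the adjusted threshold in limma, 3 at an unadjusted p under 0.05 (1 higher and 2 lower), and 0 and 2 by the methods' ANOVA after and before adjustment. An unadjusted p under 0.05 was reached by 12.2% of all genes in limma, and by 2521 of all 27,022 probe sets in the ANOVA. The median was -0.10. Aifm2, which limits lipid peroxidation apart from Gpx4, was higher at all 3 probe sets (0.54 at the brightest, adjusted p = 0.401). Chac1, which degrades glutathione, read 7.71 and 8.09 against 6.38 and 6.59 (difference -1.41, adjusted p = 0.282). The transferrin receptor Tfrc, which brings in iron, read 10.08 and 10.01 against 9.32 and 8.65 (difference -1.07, adjusted p = 0.389). At the brightest probe sets, these were the genes of the list with groups lying apart, 1 upward and 2 downward, beside 26.6% and 20.8% of all genes. The groups overlapped for both chains of the cystine transporter, Slc7a11 (-0.19) and Slc3a2 (-0.39), for the lipid enzymes Acsl4 (-0.02) and Lpcat3 (0.02), and for the ferritin receptor Ncoa4 (0.12). Acsl4 gave -0.42 with groups apart at 1451828_a_at (adjusted p = 0.602), and -0.31 with overlap at the remaining probe set.

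**Figure D5:**
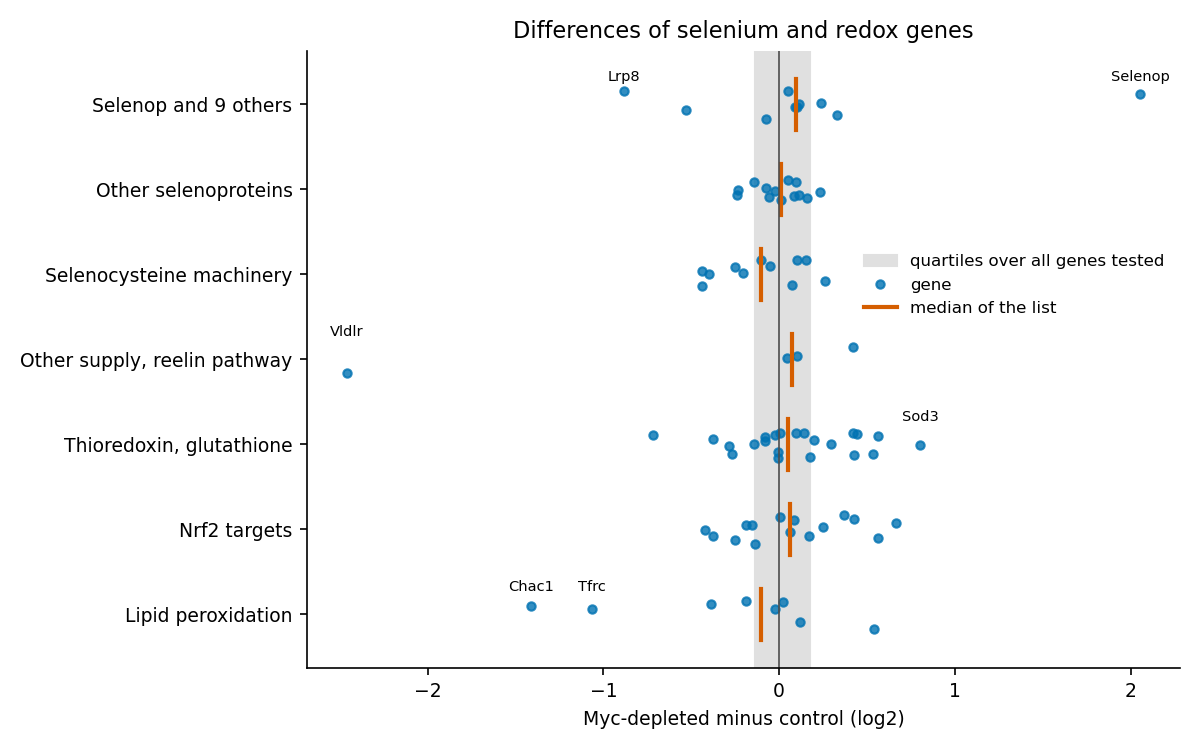
Myc-depleted minus control difference on the log2 scale (horizontal axis) of each gene of the 10 genes described and of the 6 pathway lists, 1 point per gene at its brightest tested probe set, with the list median as an orange bar and the quartiles over all genes tested (-0.13 to 0.17) as a grey band. The other selenoproteins lie between -0.24 and 0.23, whereas Selenop stands at 2.05 and Vldlr at -2.46.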

How the data were processed

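Expression values of the 4 arrays were used as deposited. Partek Genomics Suite 6.4 was used by the authors, who deposited log2 values. Their methods name Robust Multichip Average and the submitters' processing notes name GCRMA, and which of these made the values was not settled here, which matters most for dim probe sets. Of 45,101 probe sets, 64 controls were left out, and 27,022 with a mean at or over the 40th percentile (log2 5.08) were tested. The study dropped probe sets near background by a rule not given in the sources used here. Gene names came from the platform annotation (34,945 probe sets with 1 symbol, 932 with several and 9,160 with none, with several or none tested but not named), and 34,741 matched RefSeq (GRCm38.p6) by Entrez identifier. Probe sets ending in _x_at share probes with other sequences.

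Groups were compared by the lmFit and eBayes functions of limma 3.58.1 under R 4.3.3 (2 residual and 2.02 prior degrees of freedom, Benjamini-Hochberg over all probe sets tested), after the code had been tested on simulated data. The methods' ANOVA, with the group as its factor, was run on the same values. The tested probe set of highest mean stood for a gene. Precision is limited by the number of arrays. The genes named are the 10 described with every probe set, Myc, all genes of lists with up to 15 genes, up to 6 of longer lists by size of difference and others needed by role, and the 5 profiles nearest to Selenop. The 10 genes, the lists and the alternatives were chosen with earlier results of these data known. Motifs were searched in RefSeq promoter windows. Alternatives covered the filter, scaling, a floor, the variance model, averaging of a gene's probe sets, other thresholds, each array left out and a block for the replicate number. The comparisons of like arrays and the crossed pairing were added after the values had been seen.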

Additional observations from a re-analysis of the deposited data

How the results depend on the processing

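The number of probe sets past the adjusted threshold was 0 in limma and 0 under another filter, scaling, floor, variance model, the methods' ANOVA (2521 before adjustment) and each array left out (0 to 0). It was 22 genes when the probe sets of a gene were averaged and 316 at a fold above 2 with an unadjusted p under 0.05. With the replicate number as a block it was 0 (1009 before adjustment, against 2726 without the block), and with the numbers crossed, chosen after seeing the data, it was 21. The numbers did not pair the arrays: the difference of control 1 and 2 correlated with that of Myc-depleted 1 and 2 at -0.77 over probe sets. Selenop stayed between 1.98 and 2.13 in the alternatives run, and with each array left out between 1.98 and 2.13. Alternatives of filter, floor, block and variance model left its difference unchanged. Leaving out an array could move it only by as much as the arrays of a group differ, so nothing further is read from this range. The sign of Selenop and those of all Lrp8, Gpx1, Gpx4, Selenom and Selenoh probe sets were kept in the alternatives run. Averaging the probe sets of a gene gave -0.65 for Lrp8, -0.01 for Txnrd1 and 0.12 for Txnrd2.

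The list medians are small and moved with several choices, and the cause was not tested. The median of the 10 genes ran from 0.07 to 0.15 with each array left out. That of the other selenoproteins was 0.0014 without a filter, -0.0056 under a stricter one, 0.027 after quantile normalization, -0.071 with probe sets averaged, 0.11 and -0.067 within the arrays of low and high spike-in difference, and -0.030 to 0.10 with each array left out. For selenocysteine synthesis it was -0.077 without a filter, -0.052 with probe sets averaged and -0.13 to -0.063 with each array left out. Supply genes gave -2.46 under the stricter filter, which left Vldlr alone. Thioredoxin and glutathione genes gave 0.098 without a filter and under the stricter one, and 0.041 to 0.10 with each array left out. For Nrf2 targets the leave-one-out range was -0.068 (without Myc-depleted 1) to 0.13, and for lipid peroxidation it was -0.18 to -0.080, with -0.023 without a filter and under the stricter one, and -0.22 with probe sets averaged. In these lists 0 genes passed the adjusted threshold in limma with any array left out. Probe sets near the low-value threshold, as those of Gpx3 and the dimmest of Lrp8 and Txnrd2, have little signal over background, which is known to narrow differences.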
